A study of Triticum aestivum with 12 samples.

Results

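The distal part of the long arm of wheat chromosome 2B was described from RNA-seq of developing grains of the cultivars TAM112 and TAM111. Its members were the 1268 of 120744 annotated features of the count table that lie on 2B and start beyond 700000000 in the IWGSC RefSeq v1.0 assembly, a span of 101.3 Mb that ends at 801255821. They comprised 1205 TraesCS genes and 63 non-coding features. The region was chosen because earlier results of these data had shown cultivar differences there and genes that were on in some TAM111 libraries and off in others. The cultivar differences below are therefore a description, and no test is attached to them.

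Both cultivars are bread wheats that were grown in the field at Bushland, Texas, with no treatment. The 4 groups were TAM112 at 14 days after flowering (DAF, written DAP in the sample labels), TAM112 at 5 DAF, TAM111 at 14 DAF and TAM111 at 5 DAF, with 3 libraries each. Every library was made from polyadenylated RNA of several grains of 1 inflorescence, and the study kept the 3 best RNA samples of each group. The libraries share a cultivar and a stage by label, but whether the plants within a cultivar were genetically uniform was not analysed here, and nothing states what a shared replicate number means.

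Bread wheat is a hexaploid with A, B and D subgenomes, so that most genes have a near-identical homeolog on the sister chromosomes. The distal ends of wheat chromosome arms are rich in genes, recombine often and hold many members of fast-evolving families, in which presence and absence of genes varies between cultivars. Reads of both cultivars were mapped to the genome of another wheat, Chinese Spring. A gene without counts may be silent, may be missing from the plant or may have diverged too far for its reads to map, and these cases cannot be told apart in counts. In whole grains, fewer cells of a type and less RNA per cell cannot be told apart either.

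The libraries held 31916077 to 40464882 counts, so that 1 count was worth 0.0231 to 0.0362 CPM (counts scaled to a common library total). The tissue was checked with genes of the starchy endosperm. The summed level of 3 high molecular weight glutenin genes, which encode storage proteins of the endosperm, was 802, 916 and 4449 CPM in TAM112 at 14 DAF, against 16048, 22281 and 9439 CPM in TAM111 at 14 DAF. At 5 DAF these genes summed to 61.5, 16.2 and 0 CPM in TAM112 and to at most 0.461 CPM in TAM111. The summed level of 3 granule-bound starch synthase I genes, which make amylose, was 142, 187 and 540 CPM in TAM112 and 1743, 2313 and 1366 CPM in TAM111 at 14 DAF. The same sum was 614, 657 and 406 CPM in TAM112 and 506, 294 and 481 CPM in TAM111 at 5 DAF. In TAM112 the stages thus overlapped in the starch synthase sum, unlike in the glutenin sum. Both sums were higher in every TAM111 library than in any TAM112 library at 14 DAF. The cultivar comparison at 14 DAF thus also compares grains that differ in these markers, and their part in the differences below was not tested.

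No library held a count for 376 of the 1268 features, and 521 had at most 3 counts in every library. A level of 1 CPM was reached in at least 1 library by 512 features and in every library by 255. Expression was high enough for testing for 559 features, and 709 were left out of the tests. The members took 0.624% ± 0.0940 of all counts at 14 DAF and 0.670% ± 0.0393 at 5 DAF (SD, n = 6 libraries each, both cultivars together). This difference of -0.0459 percentage points was within the spread of the pooled libraries (exact permutation test, two-sided, p = 0.305). Libraries were permuted without regard to cultivar, so that differences between the cultivars are part of this spread. By cultivar, the share was 0.731%, 0.721% and 0.659% in TAM112 at 14 DAF, against 0.702%, 0.671% and 0.707% in TAM112 at 5 DAF, which overlap. In TAM111 it was 0.506%, 0.542% and 0.586% at 14 DAF, against 0.678%, 0.597% and 0.665% at 5 DAF, without overlap. The shares are of raw totals, without the factors that scaled the libraries in the tests. These factors were 0.848, 0.767 and 0.872 in TAM111 at 14 DAF, against 1.02, 0.941 and 0.953 at 5 DAF. With them, the tested members had a median change from 5 to 14 DAF in TAM111 of 0.18 on the log2 scale. The part of library composition in the lower share was not tested.

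The most abundant members per gene length were TraesCS2B02G521600, TraesCS2B02G570100, TraesCS2B02G603500, TraesCS2B02G521500 and TraesCS2B02G593000, with mean levels over the 12 libraries of 406, 235, 158, 139 and 130 TPM, a measure like CPM that also divides by gene length. The files pair no member with a gene name or product, so that members are given by identifier and position. TraesCS2B02G521600 (2B, 716593325 to 716595982) had the smallest cultivar difference of these 5 at 14 DAF. It had 567, 591 and 498 CPM in TAM112 and 430, 487 and 433 CPM in TAM111 at 14 DAF. TraesCS2B02G603500 (2B, 785289133 to 785291116) had 214, 247 and 198 CPM in TAM112 and 81.2, 78.5 and 80.5 CPM in TAM111 at 14 DAF, without overlap.

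The first comparison asked which genes differed between grains of the 2 cultivars at the same stage. At 14 DAF, 51 members were higher and 45 lower in TAM112, which is 17.2% of the 559 tested, beside 14.5% of all 65080 tested genes (7.02% higher and 7.45% lower). At 5 DAF, 8 were higher and 13 lower in TAM112, or 3.76% of the tested members beside 3.39% of all tested genes (1.45% higher and 1.93% lower). A gene was called when its fold change exceeded 1 on the log2 scale and its adjusted p in the edgeR fit was under 0.01. Since the region was chosen on this contrast, nothing is read from these shares. The rest of chromosome 2B had 15.1% and 3.60% of its tested genes called at 14 and 5 DAF.

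The 2 cultivar comparisons use different libraries. Of the called members, 15 were called at both stages, 6 of them higher and 9 lower in TAM112 at both. The like overlap over all tested genes is not given, so that nothing is read from this count. The median size of the cultivar difference was 0.79 on the log2 scale at 14 DAF and 0.50 at 5 DAF over the tested members, against 0.62 and 0.41 over all tested genes. The count at 14 DAF was lower with some single libraries left out, which also leaves fewer libraries in their group. It was 51 without replicate 1 and 50 without replicate 2 of TAM112 at 14 DAF, and 47 without replicate 2 and 46 without replicate 3 of TAM111 at 14 DAF. Without scaling factors, 97 members were called higher and 26 lower in TAM112 at 14 DAF (78.9% of the calls higher, against 53.1% with them), and the median of all tested genes lay at 0.45 on the log2 scale instead of -0.01. At 5 DAF, 13 of 25 calls were then higher in TAM112 (52.0%, against 38.1%), with the median of all tested genes at 0.18 instead of 0.02.

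**Figure D1:**
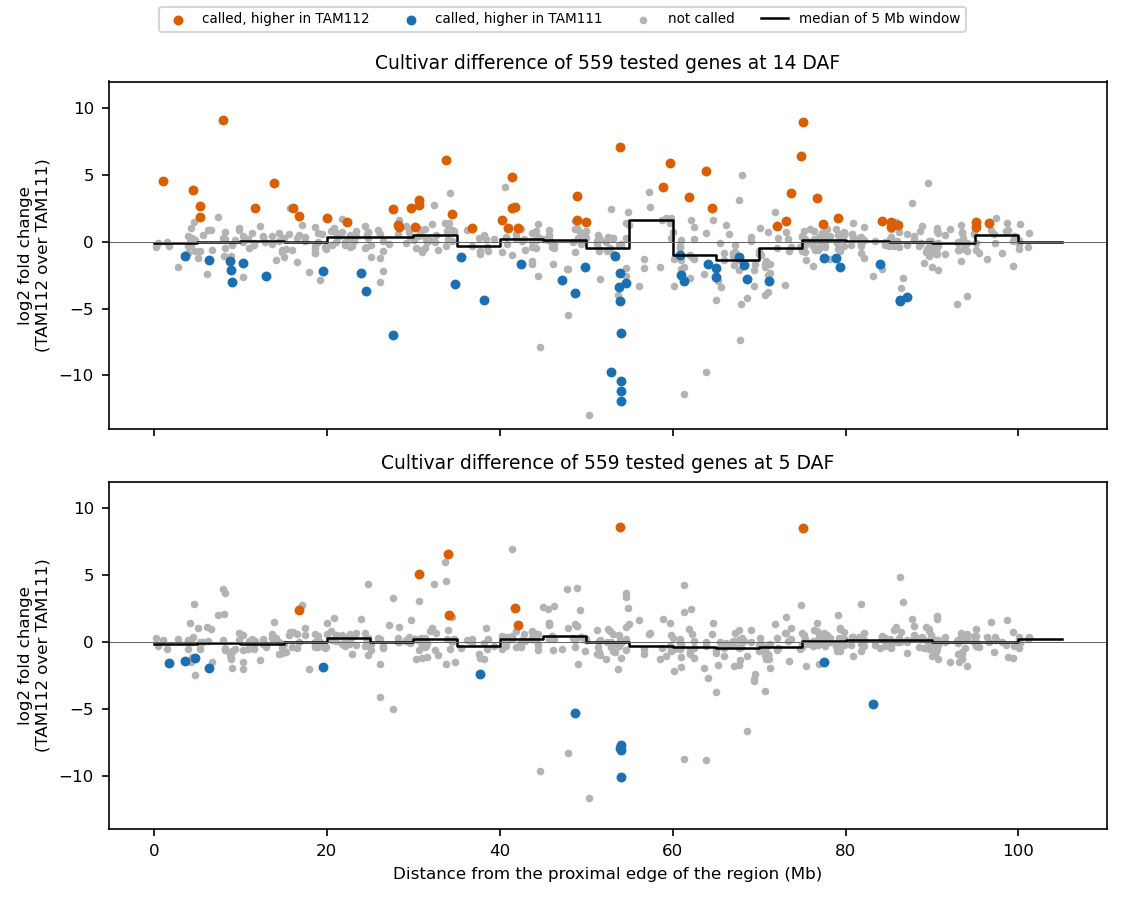
Cultivar difference (log2 fold change, TAM112 over TAM111) of the 559 tested genes against the distance from the proximal edge of the region in Mb, at 14 DAF above and at 5 DAF below. Points are genes, coloured where called, and the line is the median of each 5 Mb window; at 14 DAF the line is beyond 1 on either side of 0 between 55 and 70 Mb and no farther than 0.50 from 0 elsewhere.

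Along the arm, differences in both directions were scattered. At 14 DAF the median cultivar difference was 1.6 on the log2 scale between 755 and 760 Mb, where only 13 genes were tested. It was -1.02 between 760 and 765 Mb over 29 tested genes and -1.38 between 765 and 770 Mb over 31. The next window, 770 to 775 Mb, had a median of -0.50, as far from 0 as the windows of 730 to 735 Mb with 0.49 and 795 to 800 Mb with 0.50. At 5 DAF the 4 windows between 755 and 775 Mb had medians of -0.33, -0.34, -0.42 and -0.34, so that the first of them changed sign between the stages. Windows elsewhere reached like sizes at 5 DAF, with 0.42 between 745 and 750 Mb and 0.32 between 720 and 725 Mb. The largest number of calls lower in TAM112 was in the window of 750 to 755 Mb, in which 2 of 39 tested genes were called higher and 10 lower in TAM112 at 14 DAF, and 1 higher and 4 lower at 5 DAF. Between 765 and 770 Mb, 0 were called higher and 5 lower at 14 DAF.

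A small number of members were on in every library of one cultivar and off in every library of the other. On means at least 1 CPM, and off means at most 3 counts. TraesCS2B02G588200 (2B, 775051176 to 775056450, 4 exons) was the only member on in TAM112 and off in TAM111 at both stages, as were 0.0729% of all features. It had 2.01, 1.78 and 1.50 CPM in TAM112 at 14 DAF and 1.28, 1.26 and 1.36 CPM in TAM112 at 5 DAF, and no count in any TAM111 library. Set against a floor of 3 counts per library, it was at least 16.6-fold higher in TAM112 at 14 DAF and at least 14.7-fold higher at 5 DAF.

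TraesCS2B02G561300 (2B, 754001184 to 754001746, 1 exon) was the only member with the opposite pattern at both stages, as were 0.0836% of all features. It had no count in any TAM112 library, against 11.3, 17.1 and 12.8 CPM in TAM111 at 14 DAF and 2.55, 5.07 and 3.86 CPM in TAM111 at 5 DAF. The level was at least 182-fold lower in TAM112 at 14 DAF and at least 50.6-fold lower at 5 DAF. Its neighbours behaved alike at 14 DAF. TraesCS2B02G561200, TraesCS2B02G561400 and TraesCS2B02G561500 lie with it between 753997009 and 754011369, each with a single exon of 389 to 535 bases.

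TraesCS2B02G561200 had no count in TAM112 at 14 DAF, against 6.95, 9.71 and 7.79 CPM in TAM111, and no count in any library at 5 DAF. TraesCS2B02G561400 had 0.0472, 0.0241 and 0.0278 CPM in TAM112 at 14 DAF, against 4.11, 4.28 and 4.0 CPM in TAM111. TraesCS2B02G561500 had no count in TAM112 at 14 DAF, against 2.77, 5.80 and 5.54 CPM in TAM111. These 4 genes thus formed a run of neighbouring members that were on in TAM111 and off in TAM112 at 14 DAF. Their neighbour TraesCS2B02G560800 (2B, 753950057 to 753950323) had the reverse direction, with 1.98, 8.07 and 1.39 CPM in TAM112 and 0, 0.0725 and 0 CPM in TAM111 at 14 DAF. At 5 DAF, TraesCS2B02G560800 had 0.812, 1.12 and 2.26 CPM in TAM112 and no count in TAM111.

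At 14 DAF, whatever their levels at 5 DAF, 3 members were on in TAM112 and off in TAM111 (0.237%, beside 0.149% of all features). These were TraesCS2B02G512400, TraesCS2B02G560800 and TraesCS2B02G588200. In the reverse direction, 4 were on in TAM111 and off in TAM112 (0.315%, beside 0.171%), TraesCS2B02G561300 among them. At 5 DAF, 2 members had each pattern (0.158% each, beside 0.117% and 0.129% of all features). TraesCS2B02G512400 (2B, 707966657 to 707970348) had 2.5, 2.26 and 1.17 CPM in TAM112 at 14 DAF and no count in TAM111. TraesCS2B02G538500 (2B, 733742977 to 733747406) had 1.02, 1.13 and 0.974 CPM in TAM112 at 14 DAF and at most 0.0351 CPM in TAM111. TraesCS2B02G543900 (2B, 741382874 to 741386653) had 1.44, 2.96 and 0.946 CPM in TAM112 at 14 DAF and 0.105, 0 and 0.0702 CPM in TAM111. These genes were at or near 0 in one cultivar and low in the other. Replicate 3 of TAM112 at 14 DAF was under 1 CPM in TraesCS2B02G538500 and TraesCS2B02G543900, so that neither is among the 3.

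Larger levels separated the cultivars at other positions. TraesCS2B02G558700 (2B, 752857654 to 752858564, 1 exon) had 0.118, 0.0241 and 0.167 CPM in TAM112 at 14 DAF, against 209, 30.0 and 31.5 CPM in TAM111. The TAM111 libraries themselves differed widely, with replicate 1 highest, and no library held a count at 5 DAF. TraesCS2B02G544400 (2B, 741717794 to 741718892) had like differences at both stages. It had 8.36, 12.8 and 12.2 CPM in TAM112 and 1.61, 1.45 and 2.35 CPM in TAM111 at 14 DAF, a log2 fold change of 2.62 ± 0.27 (SE). At 5 DAF it had 9.11, 14.5 and 12.6 CPM in TAM112 and 2.49, 1.98 and 1.72 CPM in TAM111, a log2 fold change of 2.55 ± 0.26 (SE).

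Among the members called at 5 DAF, TraesCS2B02G534400 (2B, 730613404 to 730618486) had 2.93, 3.44 and 1.99 CPM in TAM112 and 0.0923, 0.0296 and 0.113 CPM in TAM111. This gene overlaps another annotated feature, so that its counts are uncertain. TraesCS2B02G538700 (2B, 733970649 to 733973385) had 3.69, 4.58 and 1.04 CPM in TAM112 and 0.0308, 0.0592 and 0 CPM in TAM111 at 5 DAF. Its cultivar difference was smaller at 14 DAF, with 1.84, 2.05 and 1.42 CPM in TAM112 and 0.842, 0.471 and 0.912 CPM in TAM111, without overlap. TraesCS2B02G600200 (2B, 783226574 to 783231181, 12 exons) went the other way at 5 DAF, with 1.38, 0.196 and 1.32 CPM in TAM112 and 9.41, 11.5 and 53.7 CPM in TAM111. TraesCS2B02G553000 (2B, 748708519 to 748711640) had at most 0.0559 CPM in TAM112 at 5 DAF, against 0.923, 1.27 and 1.24 CPM in TAM111. Smaller differences were found for TraesCS2B02G510200, with 6.03, 3.66 and 8.90 CPM in TAM112 and 18.8, 20.8 and 30.7 CPM in TAM111 at 5 DAF, and for TraesCS2B02G541400, with 0.812, 1.68 and 1.71 CPM in TAM112 and 4.15, 8.86 and 8.77 CPM in TAM111.

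**Figure D2:**
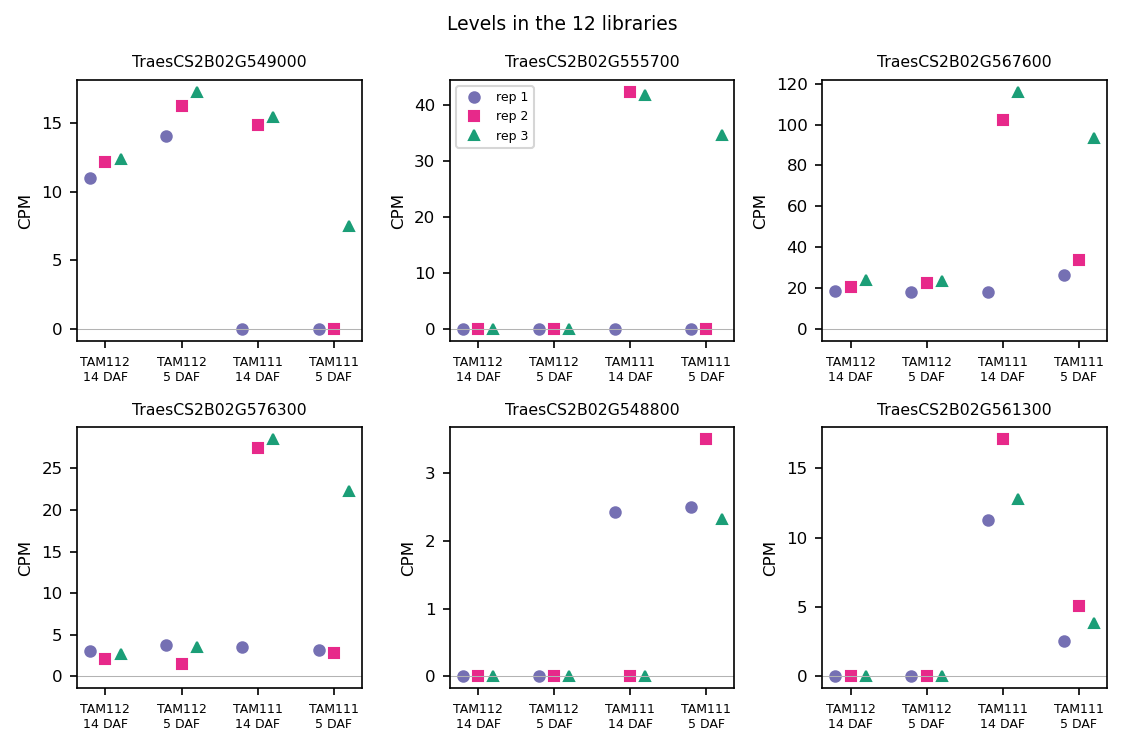
Level in CPM of 6 genes in the 12 libraries, with TAM112 on the left and TAM111 on the right; each point is 1 library, with its replicate number as colour and shape. TraesCS2B02G561300 separated the cultivars in every library, while the other 5 genes differed between TAM111 libraries of the same stage.

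A second kind of difference lay within TAM111. Some members had at least 1 CPM in one library and at most 3 counts in another library of the same cultivar and stage. At 14 DAF, 1 member did so among the TAM112 libraries (0.0789%, beside 0.239% of all features) and 17 among the TAM111 libraries (1.34%, beside 0.152%). At 5 DAF, 6 did so among the TAM112 libraries (0.473%, beside 0.480%) and 12 among the TAM111 libraries (0.946%, beside 0.492%). In TAM111 at 14 DAF the same rule was met by 5 features of the rest of 2B, by 11 at the distal end of the long arm of 2A and by 0 at that of 2D, both taken at the same length. The region was chosen partly for this pattern, and these counts are a description.

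In all, 23 members were on in one and off in another TAM111 library of a stage, and 7 did so in TAM112, with TraesCS2B02G586300 in both sets. The 23 lay between 719472270 and 795309378, and 13 of them between 745034233 and 771188118. They had 1 to 10 exons and a median length of 1526 bases, against 1410 for all members, and 0 of them overlapped another annotated feature. By library, 12 of the 17 at 14 DAF were off in replicate 1 and on in replicates 2 and 3, an arrangement that 33 features showed in all. A further 3 of the 17 were on in replicate 1 and off in replicates 2 and 3. At 5 DAF, 7 of the 12 were off in replicates 1 and 2 and on in replicate 3, as were 32 features in all. The count at 14 DAF was 1 without TAM111 replicate 1, and the count at 5 DAF was 0 without TAM111 replicate 3.

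A set of 6 members combined both arrangements, being on in replicate 3 alone at 5 DAF and in replicates 2 and 3 alone at 14 DAF, of 12 features of the whole annotation that did so. TraesCS2B02G555700 (2B, 750333595 to 750334605, 1 exon) was the most abundant of them. It had no count in any of the 6 TAM112 libraries, against 0, 42.3 and 41.7 CPM in TAM111 at 14 DAF and 0, 0 and 34.6 CPM in TAM111 at 5 DAF. The 3 TAM111 libraries with counts were close to each other in level, and the other 3 had none at all.

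TraesCS2B02G570700 (2B, 761278991 to 761283443, 6 exons) likewise had no count in TAM112, against 0, 14.2 and 14.4 CPM in TAM111 at 14 DAF and 0, 0 and 4.51 CPM in TAM111 at 5 DAF. TraesCS2B02G574400 (2B, 763862161 to 763864711, 2 exons) had no count in TAM112, against 0, 3.44 and 5.47 CPM in TAM111 at 14 DAF and 0, 0 and 4.76 CPM in TAM111 at 5 DAF. For these 3 genes, the TAM111 libraries without counts resembled TAM112.

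The other 3 genes of the set lay closer to the centromere and were detected in every TAM112 library. TraesCS2B02G549000 (2B, 745034233 to 745035324, 1 exon) had 11, 12.1 and 12.4 CPM in TAM112 at 14 DAF and 14.0, 16.2 and 17.2 CPM in TAM112 at 5 DAF. Its TAM111 levels were 0, 14.8 and 15.4 CPM at 14 DAF and 0, 0 and 7.53 CPM at 5 DAF. Here it was the TAM111 libraries with counts that resembled TAM112.

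TraesCS2B02G549200 (2B, 745579484 to 745580617, 1 exon) had 9.78, 8.84 and 9.18 CPM in TAM112 at 14 DAF and 15.6, 17.2 and 13.7 CPM in TAM112 at 5 DAF, against 0, 12.4 and 13.2 CPM in TAM111 at 14 DAF and 0, 0 and 8.43 CPM in TAM111 at 5 DAF. TraesCS2B02G550500 (2B, 746172141 to 746176151, 8 exons) had 0.567, 0.506 and 0.529 CPM in TAM112 at 14 DAF and 0.492, 0.140 and 0.485 CPM at 5 DAF. The TAM111 libraries had 0, 2.43 and 2.70 CPM at 14 DAF and 0, 0 and 1.72 CPM at 5 DAF, so that TAM112 lay between the TAM111 libraries with counts and those without.

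**Figure D3:**
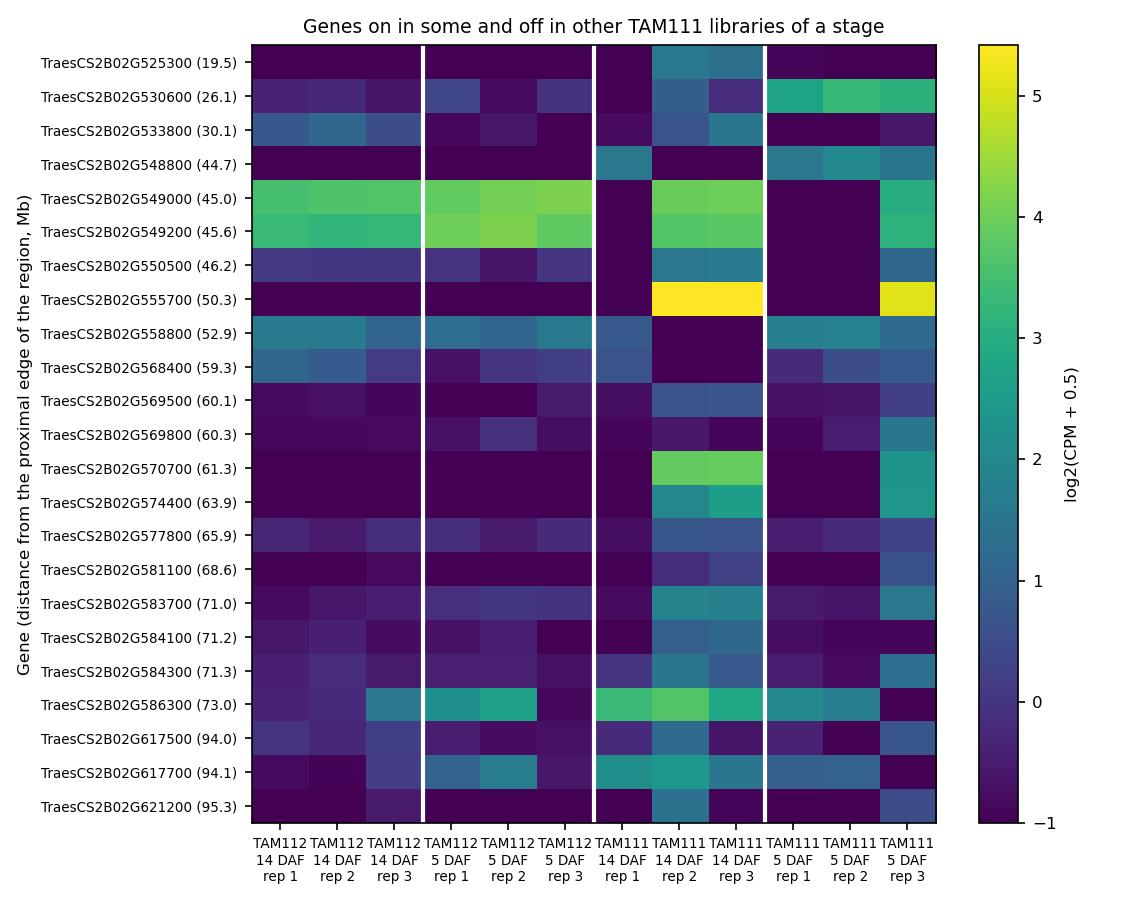
Level, as log2(CPM + 0.5), of the 23 members that were on in one and off in another TAM111 library of a stage (rows, ordered by distance from the proximal edge of the region, in parentheses in Mb) in the 12 libraries (columns, TAM112 left of TAM111). In the TAM111 block, replicate 1 at 14 DAF and replicates 1 and 2 at 5 DAF share dark cells in most rows between 45 and 72 Mb.

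Members with the opposite arrangement were interspersed with these. TraesCS2B02G548800 (2B, 744685186 to 744686363, 2 exons) had no count in TAM112, against 2.42, 0 and 0 CPM in TAM111 at 14 DAF and 2.49, 3.50 and 2.31 CPM in TAM111 at 5 DAF. TraesCS2B02G558800 (2B, 752922313 to 752929232, 10 exons) had 2.67, 2.60 and 1.61 CPM in TAM112 at 14 DAF, against 1.23, 0 and 0 CPM in TAM111, and was on in all 6 libraries at 5 DAF. TraesCS2B02G568400 (2B, 759273008 to 759274446, 2 exons) had 1.65, 1.32 and 0.584 CPM in TAM112 at 14 DAF, against 1.05, 0 and 0 CPM in TAM111. In these genes it was replicates 2 and 3 of TAM111 at 14 DAF that lacked counts, while replicate 3 at 5 DAF did not lack them.

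Some other members were on in fewer libraries. TraesCS2B02G525300 (2B, 719472270 to 719474487, 1 exon) had no count in TAM112, 0, 2.5 and 2.11 CPM in TAM111 at 14 DAF and at most 0.0308 CPM in TAM111 at 5 DAF. TraesCS2B02G583700 (2B, 771038729 to 771040774) had 0.0708, 0.169 and 0.223 CPM in TAM112 at 14 DAF, against 0.0702, 3.15 and 2.98 CPM in TAM111. It was on in replicate 3 of TAM111 at 5 DAF too, with 2.42 CPM, beside 0.185 and 0.148 CPM in replicates 1 and 2. TraesCS2B02G584300 (2B, 771281188 to 771285807) had 0.116 to 0.251 CPM in TAM112 at 5 DAF and 0.215, 0.0592 and 2.06 CPM in TAM111. TraesCS2B02G569800 (2B, 760263670 to 760264866) had at most 0.419 CPM in TAM112 at 5 DAF and 0.0308, 0.207 and 2.31 CPM in TAM111. It did not show the pattern at 14 DAF, when it stayed at or under 0.181 CPM in every library.

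A few on-off members were unlike these in that the same replicate number was low in both cultivars. TraesCS2B02G586300 (2B, 773004204 to 773006375) had 4.18, 5.84 and 0.0462 CPM in TAM112 and 3.54, 2.73 and 0 CPM in TAM111 at 5 DAF. TraesCS2B02G617700 (2B, 794073175 to 794082566) had 1.53, 2.77 and 0.162 CPM in TAM112 and 1.41, 1.54 and 0 CPM in TAM111 at 5 DAF. At 5 DAF, replicate 3 of both cultivars was thus low in these 2 genes. Among the TAM112 on-off members, TraesCS2B02G537100 (2B, 732567244 to 732570497) had 1.06, 0 and 18.1 CPM in TAM112 at 5 DAF and 4.58, 7.35 and 17.2 CPM in TAM111. For 292 features of the whole annotation, replicates 1 and 2 of TAM111 at 5 DAF were on and replicate 3 was off.

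How far along the arm the libraries of TAM111 differed was examined with TraesCS2B02G555700 as a reference, chosen after its values were seen. A gene was counted as following it when its level, as log2(CPM + 0.5) centred within each stage, correlated with that of TraesCS2B02G555700 at an absolute r of at least 0.95 over the 6 TAM111 libraries and spanned at least 1 on the log2 scale at each stage. The 6 points share libraries and depth with the reference gene, and the correlation is a description. The reference gene included, 34 members followed it, 31 in the same and 3 in the opposite direction, or 6.08% of the tested members beside 0.134% of all tested genes. Elsewhere 53 genes did so (0.0821% of 64521), of which 23 lay on chromosome 5B, 13 of them below 110 Mb, and 1 each on the rest of 2B and the distal ends of 2A and 2D.

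Of the 34, 33 lay between 745034233 and 771188118, a stretch of 26.2 Mb in which they were 21.6% of the 153 tested genes. The bounds of the stretch were drawn at the first and last of these 33, so that the shares inside and outside it are a description. TraesCS2B02G538600 (2B, 733889920 to 733892344), which followed in the opposite direction, was left out when the bounds were drawn. It was the only follower among the 406 tested members outside the stretch. The 34 had a median length of 1427 bases and a median of 3 exons, against 1584 bases and 3 exons for the tested members, and 2 of them overlapped another feature. Without TAM111 replicate 3 at 5 DAF, or without TAM111 replicate 1 at 14 DAF, no member met the criteria, since the remaining libraries of that stage did not span the required range. Leaving out any other TAM111 library left 29 to 36.

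Several followers were expressed in every library and differed in level. TraesCS2B02G567600 (2B, 758592408 to 758597224) had 18.7, 20.4 and 23.9 CPM in TAM112 at 14 DAF and 18.3, 22.6 and 23.3 CPM in TAM112 at 5 DAF, against 18.3, 102.1 and 115.9 CPM in TAM111 at 14 DAF and 26.6, 34.0 and 93.6 CPM in TAM111 at 5 DAF. TraesCS2B02G576100 (2B, 765069202 to 765073125) had 28.6, 24.1 and 33.0 CPM in TAM112 at 14 DAF, against 41.9, 151.9 and 143.7 CPM in TAM111. TraesCS2B02G576300 (2B, 765276335 to 765279904) had 3.0, 2.12 and 2.67 CPM in TAM112 at 14 DAF and 3.79, 1.48 and 3.51 CPM at 5 DAF, against 3.54, 27.5 and 28.5 CPM in TAM111 at 14 DAF and 3.23, 2.84 and 22.2 CPM at 5 DAF. In all 3 genes, replicate 1 of TAM111 at 14 DAF lay much closer to TAM112 than to the other TAM111 libraries of its stage.

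TraesCS2B02G574100 (2B, 763630629 to 763633988) had 3.07, 3.23 and 2.56 CPM in TAM112 at 14 DAF, against 1.65, 23.3 and 23.2 CPM in TAM111. TraesCS2B02G579000 (2B, 767127600 to 767132410) had 2.68, 2.07 and 3.03 CPM in TAM112 at 5 DAF, against 2.21, 1.93 and 22.2 CPM in TAM111. TraesCS2B02G553600 (2B, 749027709 to 749029028) moved in the opposite direction, with 16.3, 19.7 and 10.3 CPM in TAM112 at 14 DAF and 24.0, 6.42 and 7.58 CPM in TAM111. At 5 DAF it had 3.96, 6.01 and 4.14 CPM in TAM112 and 16.8, 22.2 and 5.95 CPM in TAM111.

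Each TAM111 library was compared with the mean of TAM112 at its stage for the 34 genes. At 14 DAF the TAM112 mean was nearest to TAM111 replicate 1 in 30 of 34, and at 5 DAF it was farthest from TAM111 replicate 3 in 29. Within the stretch, the genes were split at 750 Mb, a position not set by a rule beforehand, and the counts are a description. TraesCS2B02G538600, which lies closer to the centromere than the stretch, was nearest to replicate 1 at 14 DAF and farthest from replicate 3 at 5 DAF. Of the 27 that start beyond 750 Mb, all 27 were nearest to replicate 1 at 14 DAF and all 27 farthest from replicate 3 at 5 DAF. Of the 6 between 745 and 750 Mb, 5 were nearest to replicate 3 at 5 DAF and 4 nearest to replicate 2 or 3 at 14 DAF, among them TraesCS2B02G549000 and TraesCS2B02G549200. The division was not complete. TraesCS2B02G550500 and TraesCS2B02G553600 were nearest to replicate 1 at 14 DAF, and TraesCS2B02G550500 was farthest from replicate 3 at 5 DAF, like the genes beyond 750 Mb. None of the 34 was called between the cultivars at 5 DAF, beside 3.39% of all tested genes (11 had an unadjusted p under 0.05 in edgeR, and DESeq2 called 1). At 14 DAF 4 were called, all lower in TAM112, beside 14.5% of all tested genes (7.45% lower), and DESeq2 called 12. Followers had to span at least 1 on the log2 scale within TAM111 at each stage, which widens the spread used for the calls. The median log2 fold change of the 34 was -1.94 at 14 DAF and -1.08 at 5 DAF, against -0.01 and 0.02 over all tested genes. The 34 were chosen by their TAM111 levels, 31 of them following in the same direction a gene without counts in TAM112. The selection thus bears on these medians, and nothing is read from them.

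**Figure D4:**
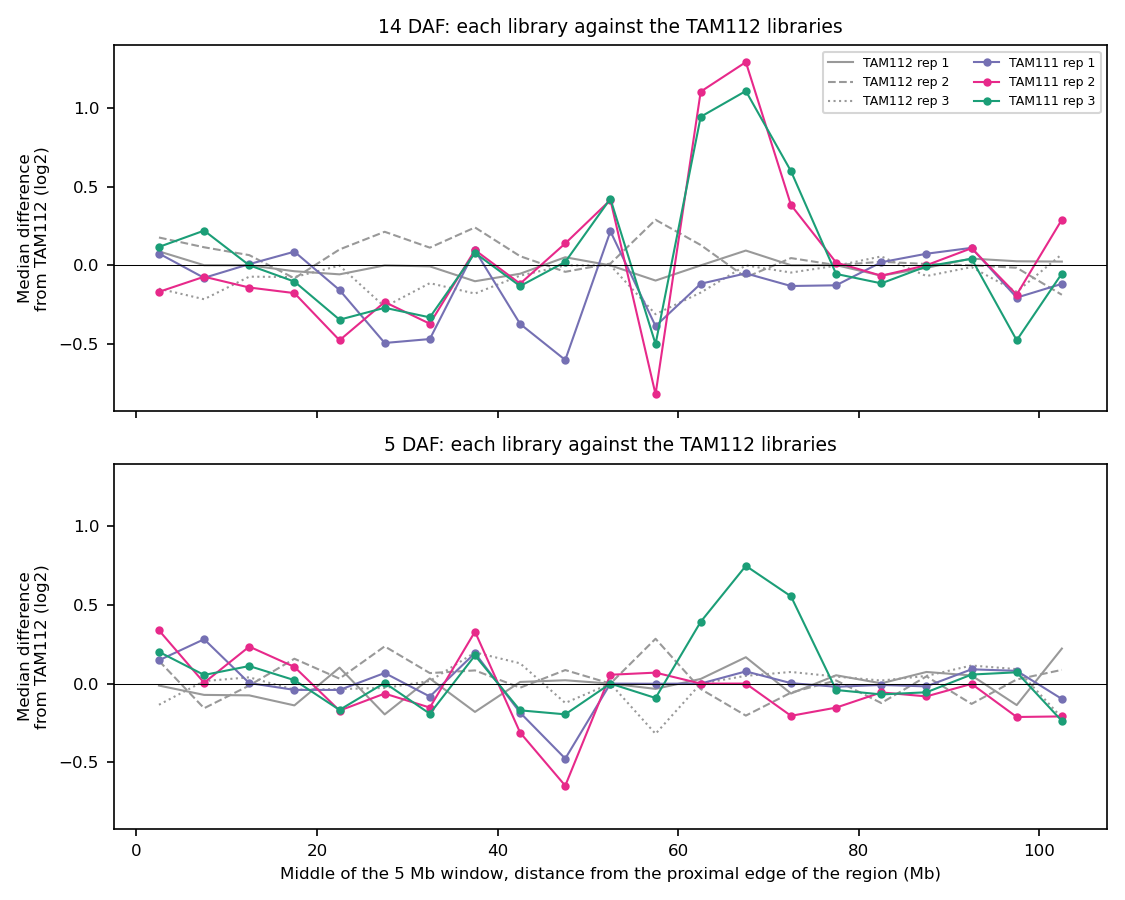
Median difference of each library from the mean of the TAM112 libraries, in log2(CPM + 0.5), over the tested genes of each 5 Mb window, against the distance of the window's middle from the proximal edge of the region; 14 DAF above and 5 DAF below. TAM112 libraries are grey and each is set against the other two; between 60 and 75 Mb, replicates 2 and 3 of TAM111 at 14 DAF and replicate 3 at 5 DAF leave the other libraries.

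Each library was then set against the TAM112 mean over all 153 tested genes of the stretch, a TAM112 library against the mean of the other two. The stretch is bounded by followers, which were chosen on these libraries, so that its shares are a description. In the stretch of 153 tested genes, 2.61%, 3.92% and 8.5% differed by more than 1 on the log2 scale from the TAM112 mean in the TAM112 libraries at 14 DAF, against 26.1%, 57.5% and 53.6% in TAM111 replicates 1, 2 and 3. Without the 33 followers, the TAM111 values over the other 120 genes were 27.5%, 52.5% and 46.7%. Among the 406 tested members outside the stretch the TAM111 values were 20.2%, 24.6% and 21.9%, and among all tested genes 19.0%, 22.6% and 21.4%. At 5 DAF the stretch had 1.96%, 4.58% and 6.54% in the TAM112 libraries and 11.1%, 19.0% and 33.3% in TAM111 replicates 1, 2 and 3. Without the followers the TAM111 values were 10%, 20% and 21.7%. Among the members outside the stretch they were 6.16%, 11.8% and 17.2%, and over all tested genes 5.58%, 12.2% and 12.1%. At 14 DAF, replicates 2 and 3 thus had higher shares than replicate 1 in the stretch with and without the followers. At 5 DAF, replicate 3 had the highest share in the stretch and among the members outside it, and without the followers it was close to replicate 2.

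By window, the median difference from the TAM112 mean between 765 and 770 Mb was -0.05, 1.29 and 1.11 on the log2 scale in TAM111 replicates 1, 2 and 3 at 14 DAF and 0.08, 0.00 and 0.75 at 5 DAF. Between 760 and 765 Mb it was -0.12, 1.11 and 0.95 at 14 DAF and 0.00, 0.00 and 0.39 at 5 DAF. Windows below 745 Mb or beyond 775 Mb stayed between -0.49 and 0.29 in the TAM111 libraries at 14 DAF and between -0.31 and 0.34 at 5 DAF. Between 745 and 750 Mb the libraries with the lowest medians were replicate 1 at 14 DAF, with -0.60, and replicates 1 and 2 at 5 DAF, with -0.48 and -0.65. In both endosperm marker sums, TAM111 replicate 1 at 14 DAF lay between replicates 3 and 2.

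The change between the stages was not used to choose the region and was tested within each cultivar. In TAM112, 74 members rose and 39 fell at 14 DAF relative to 5 DAF, which is 20.2% of the 559 tested beside 21.0% of all tested genes (11.8% rising and 9.27% falling). In TAM111, 82 rose and 61 fell at 14 DAF, or 25.6% beside 24.0% (13.4% rising and 10.6% falling). Without scaling factors the counts were 81 rising and 32 falling in TAM112 and 68 rising and 75 falling in TAM111, with the median of all tested genes in TAM111 at -0.18 on the log2 scale instead of 0.04, so that the balance of directions in TAM111 rests on the scaling. Both shares were thus close to those of all tested genes. The interaction term of the fit, which is also the cultivar difference at 14 DAF minus that at 5 DAF and so a description here, was called for 2 members, TraesCS2B02G551100 and TraesCS2B02G569000, or 0.358% beside 0.309% of all tested genes (0.167% with a positive and 0.141% with a negative term). The stages were compared on different libraries in the 2 cultivars, and 67 members were called in both, 42 rising and 25 falling in each. Nothing is read from this overlap, since that over all tested genes is not given. In TAM112 the number of members called was 74 without replicate 1 and 71 without replicate 2 of 14 DAF, the libraries of that group with the lowest glutenin levels. Leaving either out also left fewer libraries in the group, and the part of endosperm content in these numbers was not tested.

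**Figure D5:**
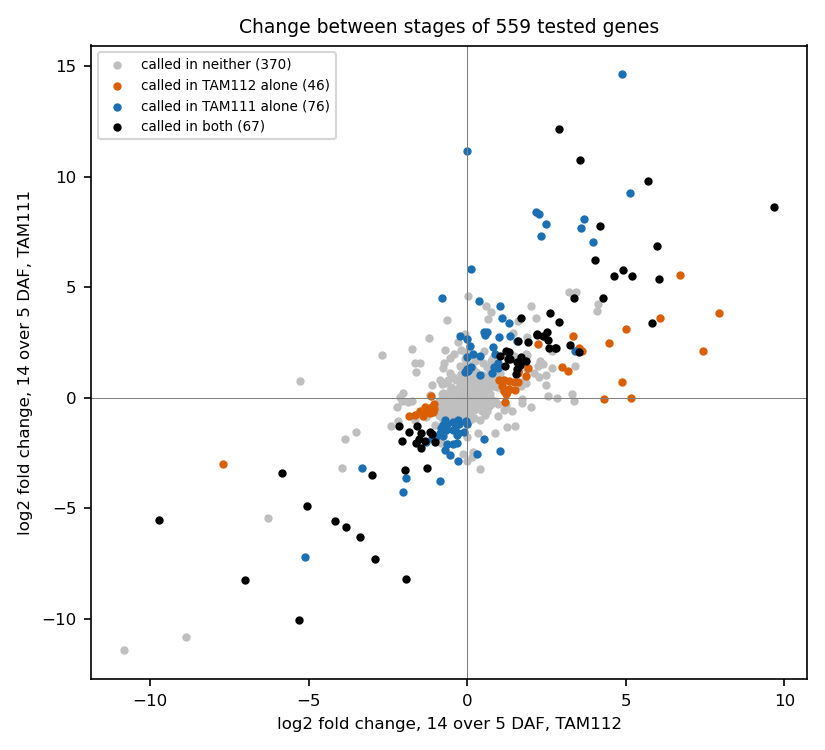
Change between stages (log2 fold change, 14 DAF over 5 DAF) of the 559 tested members in TAM112 (horizontal) and in TAM111 (vertical), 1 point a gene. The 67 genes called in both cultivars lie in the upper right and lower left corners of the plot, 46 were called in TAM112 alone and 76 in TAM111 alone.

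Among the members that rose most in both cultivars, TraesCS2B02G574800 (2B, 764060187 to 764074401, 24 exons) was on at 14 DAF only. TAM112 had 3.75, 2.87 and 2.09 CPM at 14 DAF and none at 5 DAF, a rise of at least 38.4-fold (edgeR quasi-likelihood test, Benjamini-Hochberg adjusted p = 3e-05). In TAM111 it had 7.19, 8.41 and 11.7 CPM at 14 DAF and 0, 0 and 0.0564 CPM at 5 DAF, a rise of at least 103-fold (edgeR, adjusted p = 7.8e-06).

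TraesCS2B02G570800 (2B, 761322496 to 761324125) had 3.97, 4.48 and 14.2 CPM in TAM112 at 14 DAF and 1.21, 0.699 and 0.0231 CPM in TAM112 at 5 DAF, a log2 fold change of 3.56 ± 0.74 (SE; edgeR, adjusted p = 0.0026). Its TAM111 levels were 69.4, 60.6 and 43.7 CPM at 14 DAF and at most 0.0592 CPM at 5 DAF, at least 654-fold higher (edgeR, adjusted p = 2.6e-05). In TAM112 it was highest at 14 DAF in replicate 3, the library with the highest glutenin level of that group, and the part of endosperm content in this was not tested. TraesCS2B02G605100 (2B, 786262668 to 786270846) had 0.756, 0.337 and 1.25 CPM in TAM112 at 14 DAF and 0.123, 0.196 and 0 CPM at 5 DAF (edgeR, adjusted p = 0.00995, and 0.0222 with the replicate number as a block, which ends the call). The TAM111 libraries had 11.2, 21.3 and 16.3 CPM at 14 DAF and no count at 5 DAF. TraesCS2B02G529200 (2B, 723962714 to 723963618) had 0.331, 0.746 and 0.779 CPM in TAM112 at 14 DAF and at most 0.0246 CPM at 5 DAF. In TAM111 it had 2.14, 3.37 and 3.93 CPM at 14 DAF and no count at 5 DAF.

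Among the members that fell most, TraesCS2B02G580200 and TraesCS2B02G580300 carry consecutive identifiers on 2B. TraesCS2B02G580200 (767889882 to 767893185) had no count in TAM112 at 14 DAF, against 2.88, 0.335 and 5.64 CPM at 5 DAF (edgeR, adjusted p = 0.0015). Its TAM111 levels were 0.140, 0.109 and 0 CPM at 14 DAF, against 2.83, 2.04 and 6.91 CPM at 5 DAF. TraesCS2B02G580300 (768051667 to 768055013) had 0.0236, 0 and 0.334 CPM in TAM112 at 14 DAF, against 5.17, 0.615 and 7.69 CPM at 5 DAF (edgeR, adjusted p = 0.0060). The TAM111 libraries had no count at 14 DAF, against 3.05, 1.45 and 6.74 CPM at 5 DAF. In both genes, replicate 2 was the lowest and replicate 3 the highest of the 5 DAF libraries in either cultivar.

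TraesCS2B02G505800 (2B, 701095207 to 701100285) had 1.04, 1.04 and 0.584 CPM in TAM112 at 14 DAF, against 3.20, 3.13 and 13.7 CPM at 5 DAF, and 0, 0.0725 and 0.0351 CPM in TAM111 at 14 DAF, against 3.23, 5.98 and 9.08 CPM at 5 DAF. TraesCS2B02G557500 (2B, 752299262 to 752299630) had no count at 14 DAF in either cultivar, against 0.714, 0.363 and 0.254 CPM in TAM112 and 0.554, 2.13 and 0.479 CPM in TAM111 at 5 DAF. Of the abundant members, TraesCS2B02G593000 (2B, 777828857 to 777837197) fell in both cultivars. It had 49.2, 97.7 and 98.5 CPM in TAM112 at 14 DAF, against 238, 314 and 193 CPM at 5 DAF, a log2 fold change of -1.60 ± 0.32 (SE; edgeR, adjusted p = 0.0020). In TAM111 it had 49.5, 33.9 and 40.7 CPM at 14 DAF, against 227, 173 and 116 CPM at 5 DAF (edgeR, adjusted p = 0.00038). TraesCS2B02G603500 fell in TAM111, with 81.2, 78.5 and 80.5 CPM at 14 DAF and 367, 290 and 377 CPM at 5 DAF (edgeR, adjusted p = 2.3e-05), and its log2 fold change in TAM112 was -0.45 ± 0.21 (SE; edgeR, adjusted p = 0.095).

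The proximal limit of the region does not follow a change in the data. The last features outside it, TraesCS2B02G505400 and TraesCS2B02G505500, had 20.4, 20.4 and 18.7 CPM and 8.71, 7.22 and 8.82 CPM in TAM112 at 14 DAF. The first inside it, TraesCS2B02G505600 and TraesCS2B02G505700, had 19.5, 14.8 and 21.5 CPM and 11.3, 9.22 and 11.8 CPM in TAM112 at 14 DAF. All 4 were on in every library.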

How the data were processed

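The members and the lists and rules used on them were chosen with earlier results of these data known. Counts per gene, as deposited, were made by the authors from reads trimmed with Cutadapt 2.8 and Trimmomatic 0.39, mapped with HISAT2 2.1.0 to the IWGSC RefSeq v1.0 assembly and counted with featureCounts of Subread 1.6.2 on annotation v1.1. Library kits kept strand, but the strand and multiple-match settings of the counting are not given in the sources used here, so that counts of homeologs, close copies and overlapping genes are uncertain. The exon length of each gene, also deposited, gave TPM. Libraries were grouped by cultivar and stage from the sample labels.

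Counts were fitted in R 4.3.3 with edgeR 4.0.16 (filterByExpr, TMM factors of 0.767 to 1.19, quasi-likelihood test, 1 coefficient per group over 12 libraries), with Benjamini-Hochberg adjustment over all 65080 tested genes. The fit was tested on simulated data. The p-values measure the spread between these samples, which may be technical. The SE of a fold change comes from the same fit and includes this spread, and an SD is taken over libraries. Floors cover counting error only. The named members were the on-off genes highest in TAM111, the 5 largest called cultivar differences in each direction among genes whose groups did not overlap and whose higher group averaged at least 1 CPM, the 4 largest shared stage changes in each direction and the 5 highest by TPM; further genes were named after their values were seen. Product names were sought in a RefSeq gene table for 13 gene lists and a pericarp marker list, but 0 members matched it and these lists are void. Alternatives covered scaling, filtering, the threshold, DESeq2 1.42.0, on-off limits and leaving out each library.

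Same-numbered libraries of the 2 cultivars deviated together at 5 DAF (r = 0.478, 0.393 and 0.581), from the values alone; the reported fit has no block, and the fit with one is an alternative. At 14 DAF (0.167, -0.305 and -0.128) and between stages they did not.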

Additional observations from a re-analysis of the deposited data

Results flagged for a closer look

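For TraesCS2B02G551100 and TraesCS2B02G569000, the change between stages differed between the cultivars by the interaction term of the edgeR fit, a contrast not independent of the choice of the region, which called 2 of the 559 tested members (0.358%, beside 0.309% of all tested genes). TraesCS2B02G551100 (2B, 747176416 to 747180184) had 10.3, 10.5 and 11.6 CPM at 14 DAF and 7.06, 7.63 and 7.37 CPM at 5 DAF in TAM112. In TAM111 it had 44.4, 104.6 and 80.6 CPM at 14 DAF and 8.92, 11.7 and 11 CPM at 5 DAF. Its stage change was thus smaller in TAM112, by an interaction of -2.30 on the log2 scale. TraesCS2B02G569000 (2B, 759735213 to 759736252) had 0.779, 1.30 and 0.724 CPM at 14 DAF and 3.69, 4.58 and 2.40 CPM at 5 DAF in TAM112. In TAM111 it had 0.0351, 0 and 0 CPM at 14 DAF and 5.23, 5.07 and 3.13 CPM at 5 DAF. Its interaction was 6.27 on the log2 scale, a fitted value that depends on the prior count because TAM111 at 14 DAF is at the floor.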

How the results depend on the processing

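The share of counts on the members differed by -0.0672 to -0.0222 percentage points with each library left out. Members called between the cultivars at 5 DAF numbered 21, and 45 at an adjusted p under 0.05, 41 with DESeq2 and 14 to 25 with each library left out. At 14 DAF they numbered 96, and 150 at an adjusted p under 0.05 and 46 to 109 with each library left out. With each library left out, stage calls numbered 71 to 114 in TAM112 and at most 158 in TAM111. With the replicate block, the calls were 20 between cultivars at 5 DAF, 79 at 14 DAF and 143 between stages in TAM111, and the block changed no named call but that of TraesCS2B02G605100. With on set at 0.5 CPM, the on-off members numbered 3 in TAM112 at 14 DAF, 14 in TAM112 at 5 DAF, 42 in TAM111 at 14 DAF and 29 in TAM111 at 5 DAF. With on set at 2 CPM they numbered 0, 3 and 11 in the first 3 of these groups. With off set at 10 counts or fewer they numbered 4, 13, 35 and 25 in all 4. With off set at 0 counts, 2 were left in TAM112 at 5 DAF. With each library of the group left out they numbered 0 to 1, 1 to 5, 1 to 17 and 0 to 11. Followers of TraesCS2B02G555700 numbered 42 at an r of 0.9, 41 at a range of 0.5, 38 and 25 at pseudocounts of 0.1 and 1, and 0 to 36 with each TAM111 library left out; these settings and the on-off counts with libraries left out were chosen after seeing the data. Over the named fold changes and their alternatives, 599 values kept direction and call, 48 lost the call and 0 reversed. Depth limits what is called off: 3 counts are about 0.1 CPM, and genes under this level were not detectable.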
